A study of Mus musculus with 18 samples.

Results

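The nuclear genes for the subunits of the mitochondrial respiratory chain and of ATP synthase were followed in cultured mouse testes. Members were the protein-coding rows whose gene number maps to an Nduf (complex I), Sdh (complex II), Uqcr (complex III), Cox4 to Cox8 (complex IV, cytochrome c oxidase) or Atp5 (complex V, ATP synthase) symbol. Of 86 such rows among the 22657 rows of the table, 84 reached 1 FPKM in at least 3 of the 18 samples and were members, against 15790 genes of the whole series that passed the same filter. FPKM is a count of fragments scaled to the length of the transcript and to the size of the library, so that levels may be compared between genes. Cox8b, a muscle isoform, and Ndufb4b stayed below the filter, and 1 pseudogene was left out. The members comprised 36 genes of complex I, 4 of complex II, 8 of complex III, 18 of complex IV (Ndufa4 counted there), 17 of ATP synthase and Ndufa4l2, which was put in no complex.

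The electron transport chain passes electrons from NADH and succinate through complexes I to IV to oxygen and pumps protons across the inner mitochondrial membrane, and ATP synthase uses the returning protons to make ATP. Most subunits are encoded in the nucleus by genes that nearly every cell uses. For a few subunits the genome holds a second gene with restricted use, and in the testis Cox6b2, Cox7b2 and Cox8c are the germ-cell counterparts of Cox6b1, Cox7b and Cox8a in cytochrome c oxidase. The germ-cell genes lie at chr7:4751792-4753094 (Cox6b2), chr5:71442823-71548205 (Cox7b2) and chr12:102899306-102900534 (Cox8c), and the somatic ones at chr7:30616971-30626114 (Cox6b1), chrX:106015700-106022450 (Cox7b) and chr19:7215158-7217616 (Cox8a), in the RefSeq annotation of GRCm38.p6.

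All samples were testes of ICR mice kept in culture for 48 h. A0, A10 and A50 were testes of mice given no busulfan, cultured with alginate oligosaccharides (AOS, short sugar chains cut from alginate) at 0, 10 and 50 μg/mL. B0, BA10 and BA50 came from mice that had received busulfan, an alkylating agent that depletes dividing germ cells, at 40 μg/g body weight when 3 weeks old, and were cultured 2 weeks later with the same AOS levels. The mice given no busulfan were matched in age to the treated ones. Each group had 3 samples. The methods describe 6 testes per treatment and 3 repeats, so the samples were taken as separate cultures. How many testes went into 1 library is not given in the sources used here, and the p-values below measure only the spread between these samples.

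The depth behind the values is unknown, since the table holds no read counts. The sums of FPKM per sample lay between 463970 and 511274. Across genes, replicates correlated with Pearson's r of 0.929 to 0.988, and the lowest values were those of A10 replicate 3 with the other A10 samples and of BA50 replicate 1 (0.945 and 0.961). In comparisons that contain either library, counts of called members that change without it are given with the count without it. In B0, BA10 and BA50 together, all 12 spermatocyte markers of the list fell, with a median log2 change of -2.24, and their summed level was 652 to 1160 FPKM in the untreated samples and 197 to 622 FPKM after busulfan. Of 9 spermatogonium markers tested, 6 fell and 0 rose. The 14 spermatid markers did not fall: 1 rose (Tssk6), 0 fell, and their summed level was 2689 to 5547 FPKM in the untreated samples and 2673 to 11991 FPKM after busulfan. All 6 fat cell markers rose, from sums of 42.4 to 84.6 FPKM to 67.8 to 804 FPKM. The treated groups differed in these sums, with 196 to 804 FPKM in B0, 67.8 to 122 FPKM in BA10 and 101 to 138 FPKM in BA50. Of the other cell types, 2 of 9 Sertoli cell markers and 1 of 7 Leydig cell markers rose, and 0 of 5 peritubular, 6 macrophage and 3 erythrocyte markers were called. Of all tested genes, 13.3% rose and 24.8% fell in this comparison. No marker of these lists was at 0 in all 18 samples. The part of these cells in the results below was not tested, except where a relation with the spermatid or spermatocyte markers is given. In whole testis pieces, fewer cells of a type and less RNA per cell cannot be told apart.

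The subunit genes were among the more strongly expressed genes of the testis. The median member had a mean of 92.9 FPKM over the 18 samples, against 10.0 FPKM for the median tested gene, and 82 of the 84 members lay above that median. Atp5b, the catalytic beta subunit of ATP synthase, was highest with 397 FPKM. In complex IV the highest was Cox4i1 with 292 FPKM, in complex III the hinge protein gene Uqcrh with 175 FPKM, in complex I Ndufa12 with 163 FPKM and in complex II the iron-sulfur subunit Sdhb with 72.1 FPKM. The lowest members were Ndufa11 in complex I (8.89 FPKM), Sdhc in complex II (64.4 FPKM), Uqcrq in complex III (62.2 FPKM) and Atp5g1 in ATP synthase (68.9 FPKM). Cox6a2, the muscle isoform of subunit 6a, was lowest of all with 0.704 FPKM and was the only member under 1 FPKM in any sample. Together the members held 2.08% ± 0.0365 of the FPKM of an untreated sample (SD, n = 9) and 1.98% ± 0.0793 of that of a busulfan-treated sample (SD, n = 9). The ATP synthase genes held 0.591% and 0.592%, so their sum hardly differed between the arms. The complex I genes held 0.611% ± 0.00970 against 0.566% ± 0.0212, and the complex IV genes 0.615% ± 0.0144 against 0.569% ± 0.0244, and in neither complex did the ranges of the 9 untreated and 9 treated samples overlap (the ranges were 0.600% to 0.628% against 0.531% to 0.586% for complex I, and 0.597% to 0.638% against 0.528% to 0.595% for complex IV). Without Cox6b2, Cox7b2 and Cox8c the share of complex IV was 0.513% ± 0.0219 untreated and 0.521% ± 0.0261 treated (SD, n = 9 each), with overlapping ranges. The plain sums of FPKM overlapped between the arms in both complexes, from 2821 to 3183 FPKM untreated against 2494 to 2968 FPKM treated in complex I and from 2820 to 3260 FPKM against 2480 to 3024 FPKM in complex IV. These shares and sums were not tested.

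The germ-cell isoforms of cytochrome c oxidase and their somatic partners are compared first, so the promoters of these genes except Cox8c are shown here. No window was available for Cox8c, so Cox8a is shown without its germ-cell counterpart. Promoter windows of 300 bases, from 250 bases before to 50 after the start, came from RefSeq on GRCm38.p6, the primary assembly on which the labels' build GRCm38.p5 is also based. They were matched for 67 of the 84 members, in 72 windows. Of the genes shown, the window of Cox6b2 lies at chr7:4753045-4753344 on the minus strand, Cox6b1 at chr7:30626065-30626364 on the minus strand, Cox7b2 at chr5:71548156-71548455 on the minus strand, Cox7b at chrX:106015450-106015749 on the plus strand and Cox8a at chr19:7217567-7217866 on the minus strand. Each window is given 5′ to 3′ along its gene, and capitals mark every match to CCGGAAG, a core bound by ETS factors such as GABP, or to its reverse complement CTTCCGG:
Cox6b2: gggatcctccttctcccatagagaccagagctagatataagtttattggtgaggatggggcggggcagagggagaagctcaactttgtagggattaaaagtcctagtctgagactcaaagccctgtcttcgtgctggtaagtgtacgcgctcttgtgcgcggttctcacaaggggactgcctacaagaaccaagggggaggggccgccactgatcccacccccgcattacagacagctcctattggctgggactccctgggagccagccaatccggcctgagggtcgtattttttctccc
Cox6b1: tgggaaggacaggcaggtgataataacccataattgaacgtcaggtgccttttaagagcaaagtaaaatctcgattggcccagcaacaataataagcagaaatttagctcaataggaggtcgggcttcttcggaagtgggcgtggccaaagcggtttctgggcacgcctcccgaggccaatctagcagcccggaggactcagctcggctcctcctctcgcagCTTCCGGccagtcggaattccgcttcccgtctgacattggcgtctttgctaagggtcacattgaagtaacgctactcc
Cox7b2: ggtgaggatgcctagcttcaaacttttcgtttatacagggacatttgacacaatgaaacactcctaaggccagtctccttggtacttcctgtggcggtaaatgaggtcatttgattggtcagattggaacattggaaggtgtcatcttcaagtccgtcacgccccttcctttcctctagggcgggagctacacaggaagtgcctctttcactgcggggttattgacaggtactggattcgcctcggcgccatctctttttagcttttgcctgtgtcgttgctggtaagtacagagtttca
Cox7b: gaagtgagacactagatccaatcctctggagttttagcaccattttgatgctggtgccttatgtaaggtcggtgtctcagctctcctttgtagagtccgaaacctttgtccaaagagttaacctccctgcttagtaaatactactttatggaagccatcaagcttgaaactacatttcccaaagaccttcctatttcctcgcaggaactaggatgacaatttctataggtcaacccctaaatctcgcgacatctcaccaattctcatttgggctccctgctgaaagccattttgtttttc
Cox8a: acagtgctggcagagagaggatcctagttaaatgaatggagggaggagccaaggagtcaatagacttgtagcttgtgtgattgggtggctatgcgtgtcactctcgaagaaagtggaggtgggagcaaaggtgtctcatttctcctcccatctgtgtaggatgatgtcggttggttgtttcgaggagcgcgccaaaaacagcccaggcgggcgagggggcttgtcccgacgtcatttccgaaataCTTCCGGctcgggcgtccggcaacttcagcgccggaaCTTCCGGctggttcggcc

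In these windows Cox8a held 2 matches and Cox6b1 held 1, and the windows of Cox6b2, Cox7b2 and Cox7b held 0. Over all members, 17 of 72 windows (23.6%) held the ETS letters, against 8.86% of 32851 windows of all genes and 15.5% of the 14928 windows of the tested genes. The NRF1 letters CGCATGCG stood in 9 member windows (12.5%, against 1.87% of all windows and 3.45% of those of the tested genes) and the YY1 letters AAGATGGC or GCCATCTT in 10 (13.9%, against 2.75% and 3.87%). The cAMP response letters TGACGTCA stood in 4 (5.56%, against 1.79% and 2.77%). TATAAA or TTTATA stood in 8 (11.1%), below the 13.6% of all windows and above the 7.98% of those of the tested genes, and the Cox7b2 window was among the 8. NRF1, YY1 and the cAMP response factor are other regulators whose letters were searched. Both strands were read, and no pair of these motifs holds the other. A match describes the letters of the window and is not a measured binding site.

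The first question was how the germ-cell isoforms and the somatic ones responded to busulfan. All 3 germ-cell isoforms fell and all 3 somatic partners rose. Cox8c, the germ-cell form of subunit 8, had 191, 132 and 201 FPKM in A0, 216, 250 and 395 FPKM in A10, and 298, 285 and 286 FPKM in A50. In the treated arm it had 102, 121 and 51.9 FPKM in B0, 98.1, 123 and 108 FPKM in BA10, and 99.3, 150 and 163 FPKM in BA50. Every treated group lay below the untreated group of the same AOS level, and BA50 replicates 2 and 3 reached above A0 replicate 2. Over the 9 samples of each arm Cox8c changed by -1.14 ± 0.169 on the log2 scale (SE, adjusted p = 7.31e-05).

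Its partner Cox8a, the widely used form of subunit 8, had 264, 278 and 253 FPKM in A0, 246, 232 and 203 FPKM in A10, and 189, 196 and 223 FPKM in A50. It had 339, 301 and 319 FPKM in B0, 327, 252 and 275 FPKM in BA10, and 314, 265 and 310 FPKM in BA50. Each treated group lay above the untreated group of its AOS level without overlap. The log2 change was 0.38 ± 0.0662 (SE, adjusted p = 0.000342).

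Cox7b2, the germ-cell form of subunit 7b on chromosome 5, had 84.4, 62.8 and 87.1 FPKM in A0, 102, 108 and 174 FPKM in A10, and 138, 113 and 109 FPKM in A50. After busulfan it had 42.7, 51.4 and 28.0 FPKM in B0, 49.1, 55.1 and 44.8 FPKM in BA10, and 41.5, 64.4 and 58.9 FPKM in BA50. Of the 9 treated samples only BA50 replicate 2 reached the lowest untreated sample. The log2 change of -1.13 ± 0.139 (SE) had the smallest adjusted p of all members, 1.07e-05.

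Cox7b, the X-linked somatic form, had 44.5, 51.1 and 51.4 FPKM in A0, 47.7, 51.5 and 35.3 FPKM in A10, and 41.0, 41.6 and 40.4 FPKM in A50. The treated samples had 67.6, 57.6 and 69.3 FPKM in B0, 65.1, 53.5 and 51.2 FPKM in BA10, and 68.1, 53.3 and 55.1 FPKM in BA50. BA10 replicate 3 was the one treated sample that did not exceed every untreated sample. The log2 change was 0.41 ± 0.0810 (SE, adjusted p = 0.000904).

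Cox6b2, the germ-cell form of subunit 6b, had 122, 79.8 and 95.8 FPKM in A0, 108, 119 and 206 FPKM in A10, and 138, 132 and 149 FPKM in A50. In B0 it had 63.3, 67.0 and 33.3 FPKM, in BA10 58.9, 83.5 and 66.8 FPKM, and in BA50 77.0, 108 and 116 FPKM. The arms overlapped more here than for the other isoforms, since BA50 replicates 2 and 3 exceeded A0 replicates 2 and 3 and A10 replicate 1, and BA10 replicate 2 exceeded A0 replicate 2. The log2 change was -0.79 ± 0.160 (SE, adjusted p = 0.00114). Cox6b1, its somatic partner, lay between 174 and 269 FPKM in the untreated samples (median 219) and between 240 and 319 FPKM in the treated samples (median 275). It rose by 0.35 ± 0.0696 on the log2 scale (SE, adjusted p = 0.000904).

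**Figure D1:**
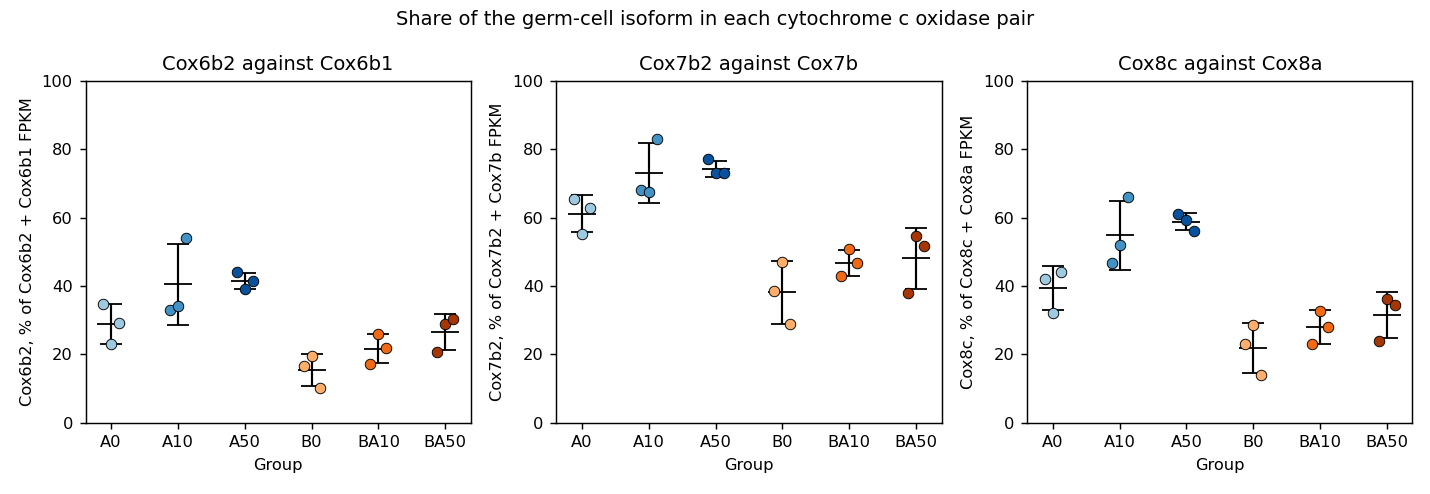
Share of the germ-cell isoform in the summed FPKM of each pair (y axis, percent) in the 6 groups (x axis). Points are samples, the long mark is the mean and the bars are ± SD (n = 3). In each pair the 3 treated groups lie below the untreated group of the same AOS level, and Cox7b2 fell from 69.5% of its pair in the untreated arm to 44.4% after busulfan.

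Within each pair the germ-cell isoform held a smaller share after busulfan, a measure that does not depend on how the samples are scaled. Cox7b2 made up 69.5% ± 8.21 of the FPKM of its pair in the untreated samples and 44.4% ± 8.17 after busulfan (SD, n = 9 each). Cox8c made up 51.1% ± 10.8 and 27.2% ± 6.94, and Cox6b2 37.0% ± 9.05 and 21.3% ± 6.41. The ratios were then tested as the difference of the 2 log2(FPKM + 1) values. The ratio of Cox7b2 to Cox7b fell by 1.54, with no overlap between the arms (exact two-sided permutation test of 9 against 9 samples, p = 4.11e-05, the smallest that the 48620 divisions can give, adjusted p = 0.000123 over the 3 pairs). The ratio of Cox8c to Cox8a fell by 1.52 (exact permutation p = 0.000165, adjusted p = 0.000247) and that of Cox6b2 to Cox6b1 fell by 1.15 (exact permutation p = 0.000535, adjusted p = 0.000535). These divisions took the 18 samples as exchangeable across AOS levels and replicate numbers. Shuffling within AOS levels, which allows fewer divisions, was not tried, so these p-values may be smaller than the design allows. At each AOS level separately, all 3 ratios were lower after busulfan and the 3 treated samples did not overlap the 3 untreated ones. The differences were -1.18 to -1.35 for B0 against A0, -1.29 to -1.66 for BA10 against A10 and -0.98 to -1.65 for BA50 against A50, and with 3 against 3 samples the exact permutation p was 0.1 in each, the smallest it can be.

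The same ratios were then compared between AOS levels, where they were higher with AOS than without it. Without busulfan the Cox8c to Cox8a ratio was higher by 0.92 in A10 and by 1.14 in A50 than in A0, the Cox7b2 to Cox7b ratio by 0.82 and 0.87, and the Cox6b2 to Cox6b1 ratio by 0.73 and 0.81. The groups did not overlap, except for Cox6b2 in A10, where the exact permutation p was 0.3, and all others had the smallest possible p of 0.1. A10 replicate 3 was the highest A10 sample in all 3 ratios, so the A10 differences rested partly on it. It had 0.96 for Cox8c, 2.27 for Cox7b2 and 0.24 for Cox6b2. In the same order, A10 replicate 1 had -0.19, 1.08 and -1.01 and replicate 2 had 0.11, 1.05 and -0.94. The A0 means were -0.625, 0.65 and -1.30. After busulfan the 3 ratios were 0.51 to 0.62 higher in BA10 than in B0 and 0.59 to 1.01 higher in BA50, and only Cox6b2 in BA50 did not overlap with B0. After adjustment over the 3 pairs, the exact permutation p of the AOS comparisons was 0.1 to 0.4, and 3 samples a group cannot reach 0.05. These tests, also that of BA50 against B0, took the samples as unpaired. The AOS comparisons of an arm share their A0 or B0 samples, as the busulfan comparisons share them with the AOS comparisons.

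The next question was whether the isoforms followed the germ cell markers from sample to sample. The mean log2(FPKM + 1) of the 14 spermatid markers was set against each isoform within the 9 untreated and the 9 busulfan-treated samples, which gave 6 relations. After busulfan Pearson's r was 0.793 for Cox6b2 (Spearman's rho 0.850), 0.788 for Cox7b2 (0.800) and 0.697 for Cox8c (0.700), with exact permutation p of 0.00834, 0.00867 and 0.0306 for r and 0.00607, 0.0138 and 0.0433 for rho (n = 9). Without BA10 replicate 2 and BA50 replicate 2, the samples farthest from the median of the markers, r was 0.817, 0.709 and 0.706. Among the untreated samples r was 0.856, 0.724 and 0.727 for Cox6b2, Cox7b2 and Cox8c, with exact permutation p of 0.00392, 0.0278 and 0.0256 (n = 9). Their rho was 0.733, 0.583 and 0.567, with exact permutation p of 0.0311, 0.108 and 0.121. Without A0 replicate 2 and A10 replicate 3 the untreated r dropped to 0.562, 0.151 and 0.218, so for Cox7b2 and Cox8c the relation rested on those samples. Adjusted over the 6 relations, the exact permutation p for r was 0.0173 to 0.0306 and that for rho 0.0364 to 0.121 (n = 9).

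The 12 spermatocyte markers were set in place of the spermatid ones after the values were seen. In the treated samples r was 0.897 for Cox6b2, 0.944 for Cox7b2 and 0.921 for Cox8c, with rho of 0.833, 0.933 and 0.900. The exact permutation p was 0.00105, 0.000130 and 0.000174 for r and 0.00827, 0.000750 and 0.00203 for rho (n = 9). Without B0 replicates 1 and 3, r was 0.801, 0.908 and 0.914. In the untreated samples r was 0.682, 0.773 and 0.838 and rho 0.633, 0.750 and 0.733, with exact permutation p of 0.0476, 0.0148 and 0.00512 for r and 0.0760, 0.0255 and 0.0311 for rho (n = 9). There r was 0.440, 0.380 and 0.498 without A0 replicates 1 and 2, so the untreated relation rested on those samples. Adjusted over these 6 relations, the exact permutation p was 0.000522 to 0.0476 for r and 0.00450 to 0.0760 for rho (n = 9). Each arm pools 3 AOS levels, and the 3 A0 samples had the lowest spermatocyte means of the untreated arm. Within AOS levels, as deviations from the group means with the values permuted inside the 3 groups of an arm, the relation with the spermatocyte markers in the treated samples had r of 0.877 for Cox6b2, 0.918 for Cox7b2 and 0.897 for Cox8c (exact permutation p = 0.00926, 0.0139 and 0.00926, n = 9). With the spermatid markers r was 0.541, 0.668 and 0.483 in the treated samples (exact permutation p = 0.106, 0.0278 and 0.102, n = 9) and 0.902, 0.789 and 0.823 in the untreated ones (exact permutation p = 0.0370, 0.106 and 0.0926, n = 9). The untreated r with the spermatocyte markers was 0.359, 0.436 and 0.539 (exact permutation p = 0.625, 0.218 and 0.222, n = 9). Adjusted over these 12 relations, the smallest exact permutation p was 0.0556, and none of them passed the threshold within AOS levels. With 216 arrangements no single relation could pass this adjustment by itself, so no conclusion is drawn from it.

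**Figure D2:**
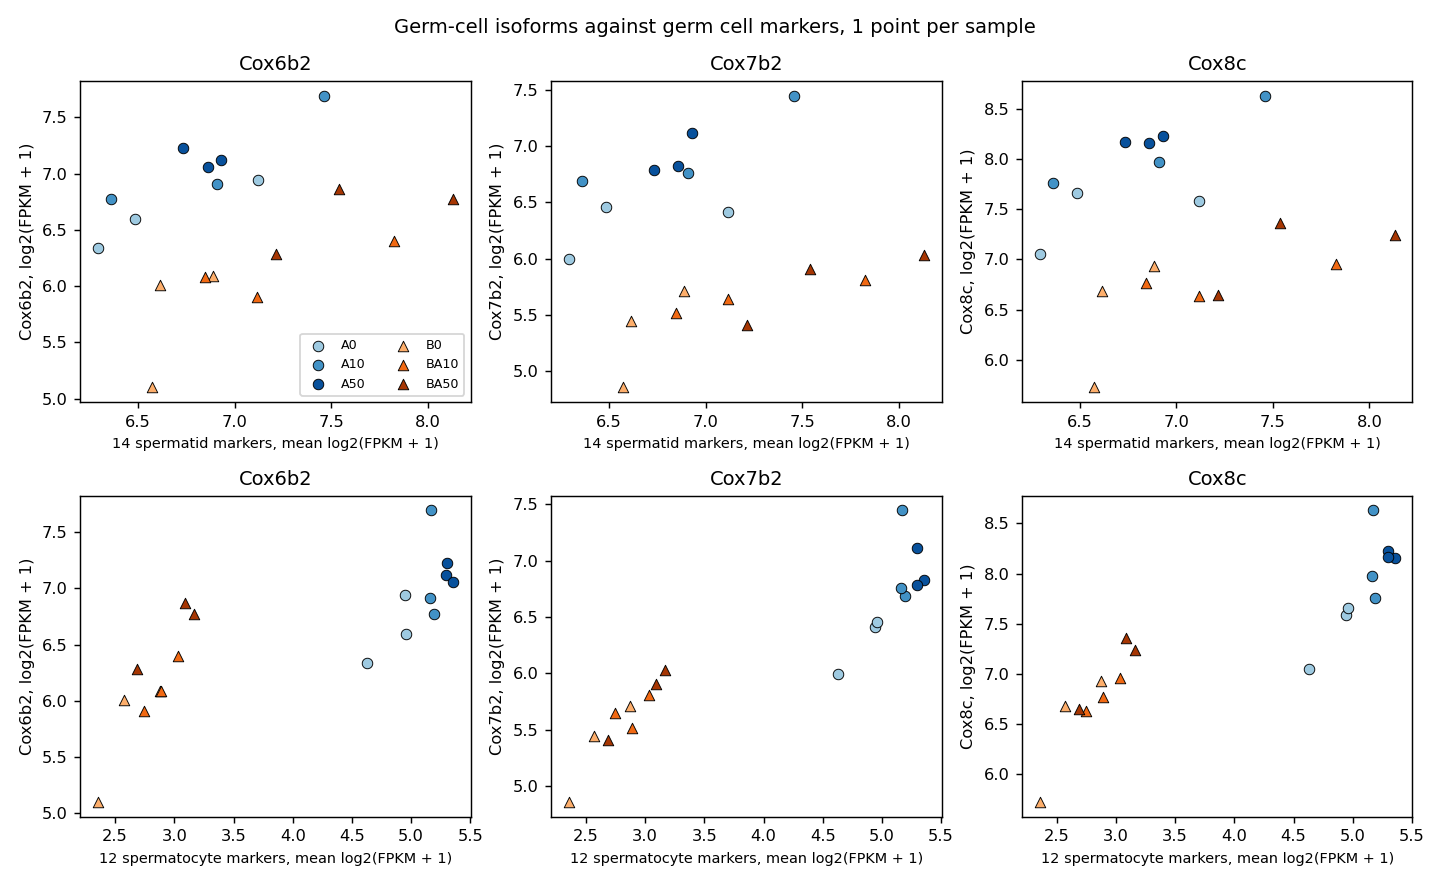
Level of Cox6b2, Cox7b2 and Cox8c (y axis, log2(FPKM + 1)) against the mean log2(FPKM + 1) of 14 spermatid markers (top, x axis) and 12 spermatocyte markers (bottom, x axis), 1 point per sample, with circles for untreated and triangles for busulfan-treated testes. The treated samples lie left of the untreated ones only on the spermatocyte axis, where Cox7b2 follows the markers with r = 0.944 in the treated arm.

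Across all subunit genes the pooled comparison of busulfan-treated with untreated testes called 26 of 84 members at an adjusted p under 0.05. Of these, 10 rose (11.9%, against 13.3% of all tested genes that rose) and 16 fell (19.0%, against 24.8% of all tested genes that fell), so the members were called no more often than the background. The median log2 change of the members was -0.02, and that of all tested genes 0.01. The changes were mostly small, with 81 of 84 members below 0.5 in size on the log2 scale and only Cox8c, Cox7b2 and Cox6b2 above it. At an adjusted p of 0.001 with a log2 change of at least 1, the limits used for the deposited study, 2 members (2.38%) fell, Cox8c and Cox7b2, against 3.52% of all tested genes. In 2 members, Ndufa9 and Uqcrc2, all 9 treated samples lay below all 9 untreated ones (2.38%, against 9.66% of all tested genes), and in 0 members did all lie above (0.513% of all tested genes). The direction of the small changes depended on scaling. When each sample was scaled to its median gene, 19 members rose (22.6%, against 24.5% of all tested genes) and 8 fell (9.52%, against 20.1%), and the 8 that still fell were Cox8c, Cox7b2, Cox6b2, Ndufv2, Uqcrc2, Ndufs6, Ndufa9 and Ndufs1. Without A10 replicate 3 the pooled comparison called 8 members higher and 16 lower, and without BA50 replicate 1 it called 7 higher and 17 lower.

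**Figure D3:**
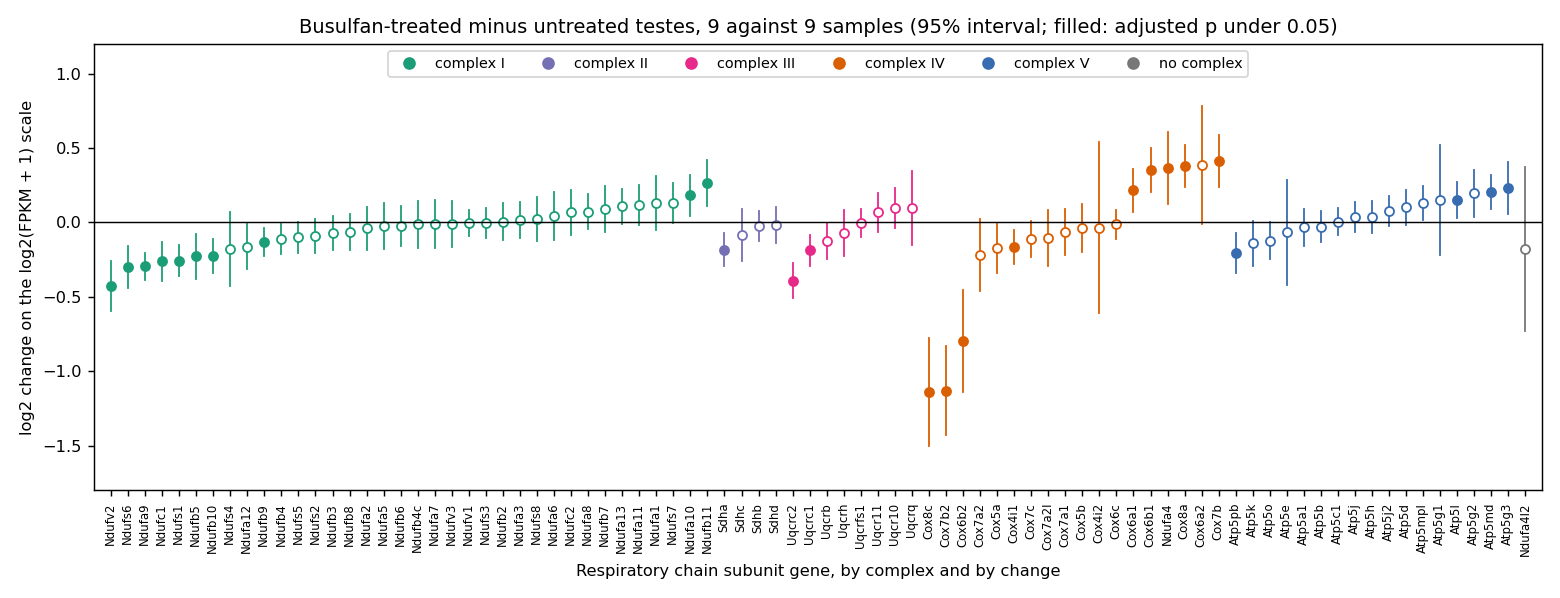
log2 change of each of the 84 subunit genes, busulfan-treated minus untreated, 9 against 9 samples (y axis, log2(FPKM + 1) scale, bars are 95% intervals), ordered by complex and by size (x axis). Filled points have an adjusted p under 0.05. Most points lie near 0, and Cox8c, Cox7b2 and Cox6b2 stand apart at -1.14, -1.13 and -0.79.

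In complex I, which takes electrons from NADH, 2 of 36 members rose and 8 fell, with a median change of -0.02. Of all tested genes, 13.3% rose and 24.8% fell. The counts in single complexes, here and below, were not tested against these shares. With each sample scaled to its median gene, Ndufb5, Ndufb9, Ndufb10 and Ndufc1 lost their calls, as did Sdha, Uqcrc1, Cox4i1 and Atp5pb below. Ndufv2, an iron-sulfur subunit of the NADH-oxidizing tip, fell most. It lay between 76.8 and 131 FPKM (median 96.3) in the untreated samples and between 58.2 and 81.2 FPKM (median 75.4) in the treated ones, and the arms met where the highest treated samples passed A0 replicate 2. Its log2 change was -0.43 ± 0.0776 (SE, adjusted p = 0.000469). Ndufa9, which sits where the peripheral arm meets the membrane arm, lay between 67.5 and 77.0 FPKM (median 73.6) without and between 52.9 and 62.9 FPKM (median 60.7) with busulfan. The 9 treated samples did not overlap the untreated ones, and the change was -0.30 ± 0.0433 (SE, adjusted p = 6.49e-05). Ndufs1, the largest iron-sulfur subunit, lay between 36.2 and 43.6 FPKM without and between 32.2 and 37.9 FPKM with busulfan, and A10 replicate 3 and BA50 replicate 1 were the samples that overlapped. It changed by -0.26 ± 0.0476 (SE, adjusted p = 0.000566). Ndufs6 changed by -0.30, Ndufc1 by -0.26, Ndufb5 by -0.23, Ndufb10 by -0.22 and Ndufb9 by -0.13, all of them accessory subunits. The 2 that rose were accessory subunits of the membrane arm, the X-linked Ndufb11 (0.27 ± 0.0728, SE, adjusted p = 0.00965) and Ndufa10 (0.18 ± 0.0655, SE, adjusted p = 0.0400). Ndufb4c, a near copy of Ndufb4, was not called and may share reads with it.

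In complex II, Sdha, the flavoprotein that oxidizes succinate, lay between 59.3 and 74.8 FPKM in the untreated and between 55.7 and 66.7 FPKM in the treated samples and fell by 0.18 on the log2 scale (adjusted p = 0.0112). The other 3 subunits were not called, with changes from -0.08 to -0.01. In complex III, 2 of 8 members fell (24.8% of all tested genes fell) and 0 rose (13.3%). The 2 that fell were the core proteins, of which only Uqcrc2 kept its call when scaled to the median gene. Uqcrc2 lay between 78.7 and 85.7 FPKM (median 83.1) in the untreated samples and between 53.0 and 70.0 FPKM (median 65.9) in the treated ones, without overlap, and changed by -0.39 ± 0.0548 (SE, adjusted p = 4.15e-05). Uqcrc1 changed by -0.19 ± 0.0484 (SE, adjusted p = 0.00720), and the 3 BA50 samples lay within the range of the untreated ones.

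In complex IV, 5 of 18 members rose (13.3% of all tested genes rose) and 4 fell (24.8%). Besides Cox8a, Cox7b and Cox6b1, the risers were Ndufa4 and Cox6a1, the widely expressed form of subunit 6a. Ndufa4 lay between 80.3 and 172 FPKM (median 140) without and between 142 and 196 FPKM (median 162) with busulfan and changed by 0.37 ± 0.113 (SE, adjusted p = 0.0186). Its lowest sample was A10 replicate 3. Cox6a1 changed by 0.22 ± 0.0678 (SE, adjusted p = 0.0201). Besides the germ-cell isoforms Cox4i1 fell, the main form of subunit 4, from a mean of 308 ± 16.9 to 275 ± 23.9 FPKM (SD, n = 9 each), a change of -0.16 (adjusted p = 0.0263). Without the germ-cell isoforms the median change of the remaining 15 complex IV members was -0.04.

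In ATP synthase, 3 of 17 members rose (13.3% of all tested genes rose) and 1 fell (24.8%). The membrane-sector genes Atp5g3 (0.23), Atp5md (0.21) and Atp5l (0.15) rose, and the stator gene Atp5pb fell by 0.20 (adjusted p = 0.0365, 0.00696, 0.0445 and 0.0199). Atp5b, the most abundant member, changed by -0.03 with an adjusted p of 0.667. Of the X-linked members, Cox7b and Ndufb11 rose and Ndufa1, an accessory subunit of complex I, had a log2 change of 0.13 (adjusted p = 0.235).

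The same comparison was then made at each AOS level. In B0 against A0, 0 members rose (1.47% of all tested genes rose) and 6 fell (7.14%, against 12.3%). They were Cox8c (-0.98), Cox7b2 (-0.95), Cox6b2 (-0.89), Uqcrc1 (-0.28), Ndufa9 (-0.27) and Ndufs1 (-0.26), with adjusted p of 0.0144 to 0.0469 in limma, so all lay near the threshold. At an unadjusted p under 0.05, 4 members were higher (4.76%, against 5.57% of all tested genes) and 9 lower (10.7%, against 19.3%). The largest rises were those of Cox4i2 (0.80), Ndufa4l2 (0.55) and Cox7b (0.40), none of them called. Scaled to the median gene, which moved the median change of all genes from -0.04 to 0.06 in this comparison, 4 members rose (Cox6b1, Cox7b, Cox8a and Atp5md, 4.76% against 4.43% of all tested genes) and 1 fell (Cox7b2, 1.19% against 8.17%). Without A0 replicate 1, A0 replicate 3 or B0 replicate 3, 0 members were called. With a replicate block in the fit, 2 fell and 0 rose.

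In BA10 against A10, 0 members rose (3.74% of all tested genes rose) and 11 fell (13.1%, against 15.2%). Cox8c (-1.34), Cox7b2 (-1.31), Cox6b2 (-0.99) and Ndufv2 (-0.59) fell most, and Uqcrc2, Ndufb5, Ndufs6, Ndufc1, Ndufb10, Ndufa9 and Cox4i1 fell by 0.29 to 0.46 on the log2 scale. Among the risers that were not called, Cox6a2 had 0.49, Ndufa4 0.45 and Cox7b 0.34. At an unadjusted p under 0.05, 6 members were higher (7.14%, against 12.2% of all tested genes) and 17 lower (20.2%, against 20.7%). Without A10 replicate 3, 8 members fell and 0 rose. Cox8c (-1.08), Cox7b2 (-1.07) and Ndufv2 (-0.44) were still called, and Atp5pb and Ndufs1 were added. Cox6b2, Ndufb5, Ndufs6, Ndufc1 and Cox4i1 were not called without that library. Without BA10 replicate 3, 5 fell and 0 rose. Scaled to the median gene, 7 fell (8.33%, against 13.4% of all tested genes) and 5 rose (5.95%, against 8.25%).

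In BA50 against A50, 8 members rose (9.52%, against 3.7% of all tested genes) and 6 fell (7.14%, against 16.2%). Cox8a (0.55), Cox7b (0.50), Cox6b1 (0.49), Cox6a1 (0.43), Ndufb7 (0.41), Ndufa13 (0.34), Atp5md (0.29) and Atp5j2 (0.26) rose. Cox7b2 (-1.13), Cox8c (-1.10), Uqcrc2 (-0.45), Ndufv2 (-0.42), Ndufa9 (-0.29) and Ndufs1 (-0.28) fell. Cox6b2 had -0.49 and was not called (adjusted p = 0.238). The count of risers turned on single libraries, with 14 higher and 8 lower without A10 replicate 3, which enters only through the shared spread, 2 higher and 4 lower without BA50 replicate 1, 1 higher and 4 lower without A50 replicate 1, and 3 higher and 4 lower without A50 replicate 2. Scaled to the median gene, 22 rose (26.2%, against 8.55% of all tested genes) and 3 fell (3.57%, against 13.0%).

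**Figure D4:**
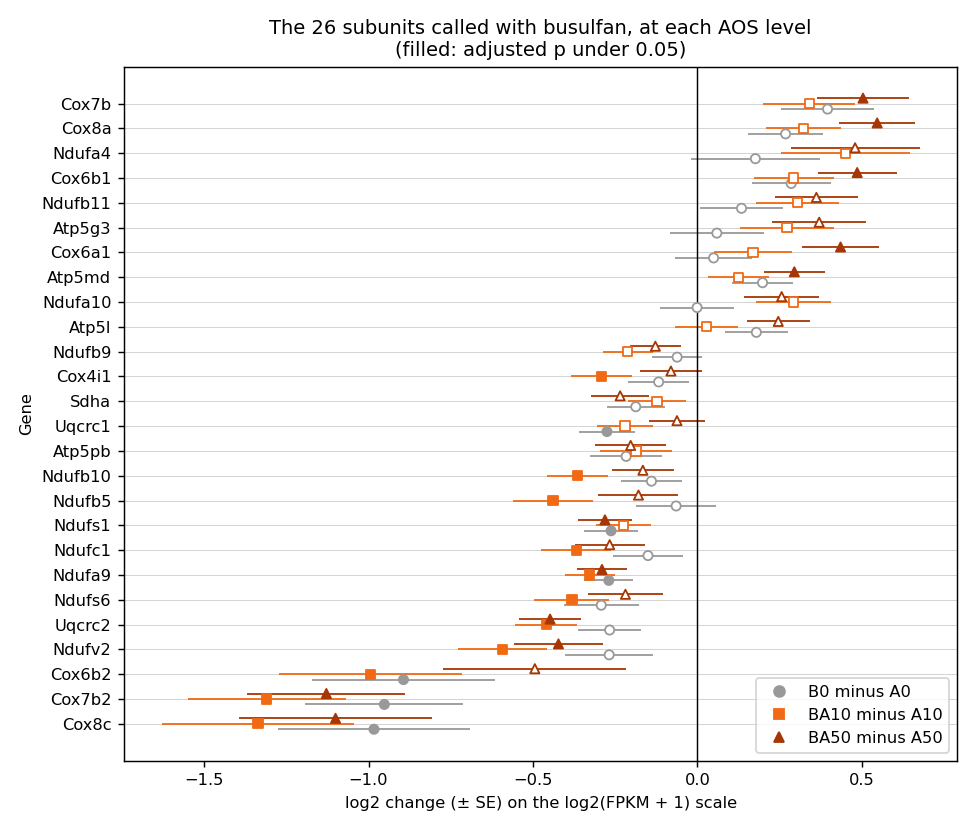
log2 change with busulfan (x axis, ± SE, log2(FPKM + 1) scale) of the 26 members called in the pooled comparison (y axis), at 0, 10 and 50 μg/mL AOS, 3 against 3 samples each. Filled marks have an adjusted p under 0.05. All 16 members that fell lie left of 0 at each AOS level, and of the 10 that rose 9 lie right of 0 at each level, the exception being Ndufa10 in B0 against A0. The pooled change used to choose them is the mean of the changes shown, so equal signs are partly fixed by that choice.

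Of the 16 members that fell in the pooled comparison, all had a negative change at each AOS level, and Cox7b2, Cox8c and Ndufa9 were called at all 3. Of the 10 that rose, 9 had a positive change at each level and 0 were called at all 3. How many of all tested genes had the same sign, or were called, at all 3 levels was not counted. Scaled to the median gene, Cox7b2 kept its calls at all 3, and Cox8c (adjusted p = 0.0836 in limma) and Ndufa9 were not called in B0 against A0. Cox6b1, Cox7b and Cox8a were then called higher at all 3. Without BA50 replicate 1, Cox8c was not called in BA50 against A50. Each of these single-level values is part of the pooled one, so equal signs at the 3 levels are partly fixed by how the members were chosen.

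AOS called 0 members in any comparison by limma at an adjusted p under 0.05. In A10 against A0 and in A50 against A0 the background was 0.0% of all tested genes, in BA10 against B0 it was 0.0253% (4 genes) and in BA50 against B0 0.095% (15 genes). The smallest adjusted p of a member was 0.322 (Atp5g3) for A10, 0.209 (Cox8a) for A50, 0.749 (Atp5c1) for BA10 and 0.101 (Uqcrc1) for BA50. At an unadjusted p under 0.05, A10 had 6 members higher (7.14%, against 4.51% of all tested genes) and 6 lower (7.14%, against 10.7%). A50 had 3 higher (3.57%, against 9.85%) and 9 lower (10.7%, against 5.8%). BA10 had 0 higher (1.89% of all tested genes) and 0 lower (3.17%). BA50 had 9 higher (10.7%, against 12.7%) and 2 lower (2.38%, against 11.6%). The median change of the members was -0.03, -0.09, -0.09 and 0.02 in the 4 comparisons.

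The largest values under AOS were again those of isoforms. In A10 against A0 the highest were Cox4i2 (0.84), Cox8c (0.69) and Cox7b2 (0.68) and the lowest Cox6a2 (-0.47), Ndufa4 (-0.43) and Cox7a1 (-0.41). In A50 against A0 the highest were Cox8c (0.75), Cox7b2 (0.62) and Cox6b2 (0.51) and the lowest Cox6a2 (-0.67), Atp5g1 (-0.61) and Ndufa4 (-0.44). In BA10 against B0 the highest were Cox6b2 (0.40), Cox8c (0.34) and Cox7b2 (0.32) and the lowest Cox4i2 (-0.56), Ndufa4l2 (-0.53) and Ndufs4 (-0.28). In BA50 against B0 the highest were Cox6b2 (0.91), Cox8c (0.64) and Atp5g1 (0.60) and the lowest Ndufa4l2 (-0.87), Cox4i2 (-0.86) and Cox6a2 (-0.54). None of these passed the adjusted test. Without BA50 replicate 1, Cox6b2 (1.09, adjusted p = 0.0481) and Uqcrc1 (0.37, adjusted p = 0.0456) were called higher in BA50 than in B0, and without A10 replicate 3 Uqcrc1 was (0.35, adjusted p = 0.0456). The spermatocyte markers had median changes of 0.34, 0.47, 0.28 and 0.45 in the same order of comparisons, and the spermatid markers 0.28, 0.23, 0.63 and 1.00.

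Whether AOS changed the members differently with and without busulfan was tested as the difference of the AOS changes. At both AOS levels 0 members and 0.0% of all tested genes were called by limma. At an unadjusted p under 0.05 the 10 μg/mL difference had 0 members higher (1.8% of all tested genes) and 3 lower (3.57%, against 2.17%), namely Ndufa6 (-0.43), Ndufv3 (-0.39) and Ndufb5 (-0.37). The 50 μg/mL difference had 8 higher (9.52%, against 2.93%) and 0 lower (3.36% of all tested genes). Among them Atp5g1 (1.21), Ndufb7 (0.49), Ndufa13 (0.39) and Cox6a1 (0.39) had the largest values, and the smallest adjusted p of a member was 0.630.

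The isoforms of muscle and other tissues were measured as well, and 0 of 4 passed the busulfan test. Cox4i2, an oxygen-regulated form of subunit 4, had 11.4, 10.7 and 9.20 FPKM in A0, 14.01, 16.2 and 31.9 FPKM in A10, and 17.8, 7.09 and 15.0 FPKM in A50. It had 25.99, 18.6 and 13.7 FPKM in B0, 13.7, 7.51 and 18.2 FPKM in BA10, and 7.78, 5.32 and 22.6 FPKM in BA50, so the A0 samples were close together and the A10, A50, BA10 and BA50 samples spread more than 2-fold. With a pooled log2 change of -0.03 (adjusted p = 0.931) and a sign that flips under median scaling and quantile normalization, no direction is given for it. Ndufa4l2, a paralog of Ndufa4 that is induced by low oxygen, lay between 29.8 and 76.0 FPKM without and between 14.6 and 72.1 FPKM with busulfan, and A10 replicate 3 and BA50 replicate 3 were the highest samples of the arms. Its log2 change was -0.18 (adjusted p = 0.611). Cox7a1, the heart and skeletal muscle form of subunit 7a, lay between 7.40 and 13.2 FPKM in all samples and had -0.06 (adjusted p = 0.519), with a sign that flips under the same scalings. Its partner Cox7a2 had -0.22 (adjusted p = 0.143), and Cox7a2l -0.10, and neither was called. Cox6a2 lay between 0 and 1.38 FPKM and had 0.39 (adjusted p = 0.114). The 5 skeletal muscle markers summed to 2.14 to 4.05 FPKM in any sample.

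**Figure D5:**
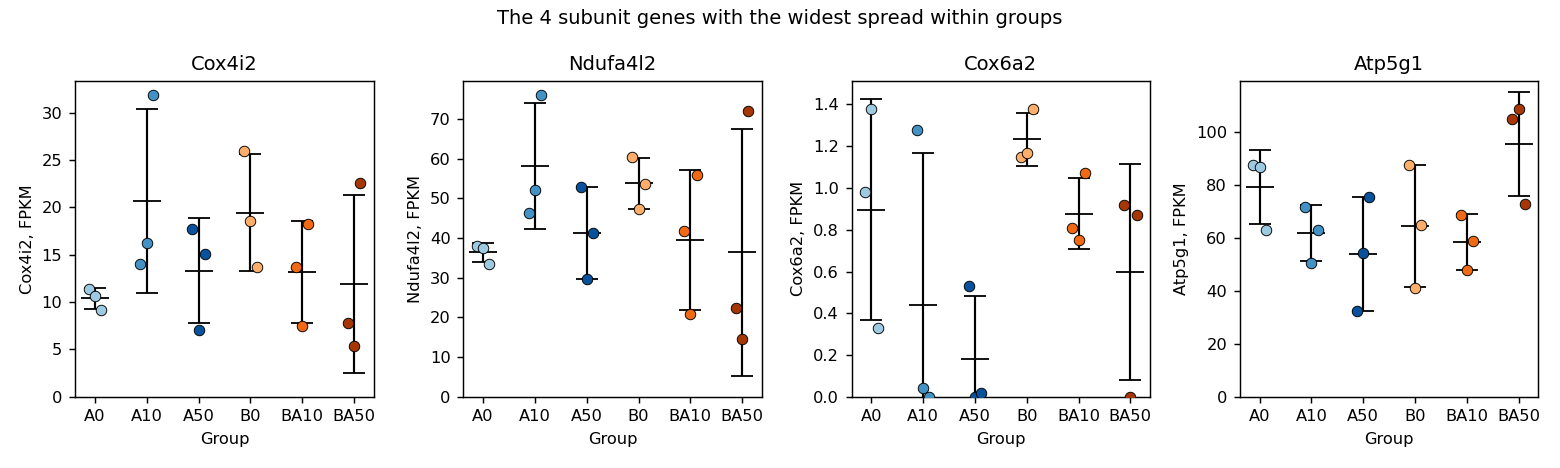
FPKM (y axis, starting at 0) of Cox4i2, Ndufa4l2, Cox6a2 and Atp5g1 in the 6 groups (x axis), the 4 members with the widest spread within groups (0.399 to 0.623 on the log2 scale). Points are samples, the long mark is the mean and the bars are ± SD (n = 3). Cox4i2 and Ndufa4l2 are both highest in A10 replicate 3 (31.9 and 76.0 FPKM).

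The members were on the whole measured with little spread. The median SD within groups was 0.127 on the log2 scale for the members and 0.209 for all tested genes. Cox4i2 (0.623), Ndufa4l2 (0.601), Cox6a2 (0.420), Atp5g1 (0.399) and Cox8c (0.386) varied most. Atp5g1 encodes the same mature c subunit as Atp5g2 and Atp5g3, and had 87.6, 87.0 and 63.1 FPKM in A0, 32.4, 54.5 and 75.4 FPKM in A50, 87.6, 41.2 and 64.8 FPKM in B0 and 105, 109 and 72.8 FPKM in BA50. BA50 replicates 1 and 2 were the highest of all samples. Its change in BA50 against A50 was 0.87 (adjusted p = 0.0560), and none of its comparisons passed the test. Atp5g2 had 0.19 in the pooled comparison (adjusted p = 0.0530).

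Among genes that work beside the chain, the germ-cell forms below fell with busulfan as well, whereas only carrier genes rose. With busulfan, 13.3% of all tested genes rose and 24.8% fell. Cyct, the testis form of cytochrome c, which carries electrons to complex IV, lay between 33.0 and 104 FPKM (median 67.9) in the untreated samples and between 7.04 and 21.7 FPKM (median 15.5) after busulfan, without overlap. It changed by -2.13 ± 0.175 (SE, adjusted p = 1.61e-07), whereas Cycs, the somatic form, had 0.13 (adjusted p = 0.229). Slc25a31, the germ-cell ADP/ATP carrier, lay between 18.8 and 27.9 FPKM (median 22.9) without busulfan and between 0.63 and 1.86 FPKM (median 1.41) with it and changed by -3.40 ± 0.108 (SE, adjusted p = 6.11e-12). The other carriers rose, Slc25a5 by 0.41, Slc25a4 by 0.31 and the phosphate carrier Slc25a3 by 0.22 on the log2 scale (adjusted p = 0.00309, 0.0110 and 0.0114). Of the pyruvate and lactate dehydrogenase genes, the germ-cell forms Pdha2 (-1.02, adjusted p = 5.53e-05) and Ldhc (-0.58, adjusted p = 0.0103) fell, as did the shared subunit Pdhb (-0.34, adjusted p = 1.89e-05). The somatic forms Pdha1 (0.20), Ldhb (0.35) and Ldha (-0.15) were not called (adjusted p = 0.132, 0.157 and 0.243).

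Factors that assemble the complexes showed no common direction. Of all tested genes, 13.3% rose and 24.8% fell with busulfan, and the counts of the lists below were not tested against these shares. Of 14 complex I assembly factors 2 rose and 3 fell, with a median of 0.02. Ndufaf3 fell most, by 1.04 on the log2 scale from a mean of 74.6 ± 18.6 to 36.0 ± 10.0 FPKM (SD, n = 9 each, adjusted p = 5.82e-06), and Ndufaf7 (-0.43) and Ndufaf5 (-0.40) fell too, while Nubpl (0.28) and Tmem126b (0.27) rose. Of 18 complex IV assembly factors tested 2 rose and 4 fell, with a median of -0.01. Cox10 and Cox11, which serve heme and copper delivery, fell by 0.56 and 0.31 (adjusted p = 3.90e-06 and 0.000154), and Cox16 (-0.37) and Cox20 (-0.34) fell as well, whereas Cox14 (0.27) and the copper chaperone Cox17 (0.21) rose. In complex II 1 of 4 factors fell (Sdhaf4, -0.30), in complex III 1 of 6 rose (Uqcc1, 0.15), and in ATP synthase 1 of 3 fell (Tmem70, -0.22). Of 13 TCA cycle enzymes 2 rose (Idh3g, 0.30, and Mdh2, 0.25) and 3 fell (Suclg1, -0.27, Dlst, -0.17, and Dld, -0.15), with a median of -0.02. Of 7 tested regulators of mitochondrial gene expression, 0 rose and 2 fell, the mitochondrial RNA polymerase Polrmt (-0.21) and the ETS factor subunit Gabpa (-0.15, adjusted p = 0.0495), with a median of -0.02. The 13 subunits encoded in mitochondrial DNA were not analysed here.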

How the data were processed

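The authors deposited FPKM with 2 decimals per gene and sample. Their methods describe oligo(dT) libraries read on an Illumina HiSeq instrument and mapped with SOAPaligner, whereas the submitters' processing notes name HISAT, Bowtie2, RSEM and GRCm38.p5. Strandedness is not given in the sources used here, so a gene and an overlapping or antisense gene cannot be told apart. FPKM is a share of each library, so a large change elsewhere moves every other value, and read depth is unknown, so no counting interval is given.

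Groups and replicate numbers came from the sample labels. Gene numbers were matched to RefSeq symbols (20656 matched, 155 did not, and 1846 rows carry no gene number). Genes that reached 1 FPKM in 3 or more samples were tested on log2(FPKM + 1) with limma 3.58.1 in R 4.3.3, with a mean-variance trend, all 18 samples in 1 fit and Benjamini-Hochberg adjustment over the 15790 genes. The pooled busulfan comparison is the mean of the differences at the 3 AOS levels. Called, rose and fell mean an adjusted p under 0.05. Fold changes on this scale are understated for low genes. Isoform ratios and marker relations used exact permutation tests (SciPy 1.17.1).

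Genes named were the isoforms and their partners, in each comparison the called members and the 3 largest rises and falls, the highest and lowest member of each complex, the X-linked members, the carriers and the pyruvate and lactate dehydrogenase forms, with examples of the other lists. The members and lists were chosen with earlier results of these data known. Alternatives were a replicate block, a pseudocount of 0.1, no filter, a mean of at least 5 FPKM, quantile normalization, scaling to the median gene, no trend, only the groups compared, each sample left out and the limits of the study. Deviations from the group means showed all 3 same-numbered pairs of B0 and BA50 varying together (correlations of 0.562, 0.422 and 0.138), so for that comparison a fit of both groups alone with a replicate block was added after seeing the data. The numbers of the other groups compared did not meet this.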

Additional observations from a re-analysis of the deposited data

How the results depend on the processing

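The fall of the 3 germ-cell isoforms and the rise of their partners with busulfan were called under each alternative tried for the pooled comparison except the limits of the study. Leaving out 1 sample each, the log2 ratio ranged from -1.268 to -1.003 for Cox6b2, from -1.66 to -1.41 for Cox7b2 and from -1.66 to -1.38 for Cox8c, with exact permutation p of at most 0.00119, 8.23e-05 and 0.000329. Leaving out 1 sample each, the members called ranged from 21 to 29 in the pooled comparison (26 with all samples), from 0 to 7 in B0 against A0 (6), from 5 to 15 in BA10 against A10 (11), from 5 to 22 in BA50 against A50 (14) and from 0 to 2 in BA50 against B0 (0), with 0 in the other comparisons. B0 against A0 had 0 calls without A0 replicate 1, A0 replicate 3 or B0 replicate 3, and 3 without B0 replicate 2, BA10 replicate 1 or 3, or any A50 sample. At the limits of the study 2 members were called in the pooled comparison and 0 at each AOS level. With only the compared groups in the fit, 1 was called in B0 against A0 and 2 in BA10 against A10. Scaling to the median gene gave 25 calls in BA50 against A50. The log2 change of Cox4i2 (-0.03) turned to 0.057 under quantile normalization, to 0.044 under median scaling and ranged from -0.22 to 0.10 with 1 sample left out, and that of Cox7a1 (-0.06) turned to 0.007 and 0.016 under the same 2 scalings. Among untreated samples Spearman's rho with the spermatid markers was 0.583 for Cox7b2 (exact permutation p = 0.108, n = 9) and 0.567 for Cox8c (exact permutation p = 0.121, n = 9). The cause was not tested for any of these.

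Replicate numbers are shared between groups, and 16 of the 45 pairs of same-numbered samples deviated together (correlation over 0.1, range -0.661 to 0.674). All 3 pairs did so for B0 with BA50 and for BA10 with BA50, and for no other groups. BA10 and BA50 were not compared with each other, so only B0 and BA50 were taken as paired, and only in limma. The isoform ratio tests did not use this pairing. With a block, whether in the fit of all samples or in that of both groups alone, 0 members were called in BA50 against B0, as without it. With a replicate block, 2 members were called in B0 against A0 and 25 in the pooled comparison, where Atp5l was lost. Of the values of named members in the pooled comparison under the alternatives, 751 kept direction and side of the threshold, 57 lost the call, 5 gained it and 11 turned sign. Read depth is unknown, and the values of Cox6a2 (0 to 1.38 FPKM) lie where 2 decimals and few reads limit the precision.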

Other observations

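Cox4i2 and Ndufa4l2 varied together from sample to sample. Both are known to respond to low oxygen, but the reason for their joint variation was not tested. The pair was chosen after its values were seen, so the permutation p below cannot count as a test of it. Over the 18 samples their log2(FPKM + 1) values had a Pearson's r of 0.941 and a Spearman's rho of 0.938 (permutation p = 1e-05 for each, the smallest that 100000 resamples can give). Without A10 replicate 3 and BA50 replicate 2, r was 0.920, and the deviations from the group means had an r of 0.930. Neither gene was called in any comparison.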
